A study of Mus musculus with 20 samples.

Results

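Clusterin, the product of the mouse gene Clu, was followed as 1 of 8251 genes linked to a probe set of the array. It has 2 probe sets linked to it alone, of 12422 that are not controls, the brighter 95286_at and the dimmer 161294_f_at, and both were bright enough to be among the 7453 probe sets tested. Transcript levels were measured in ventricle on Affymetrix arrays, and 19 of the 20 arrays in the deposited table carry a group in their titles. The wild-type strain, written FVBN in the labels and read here as FVB/N, gave 2 control arrays and 4 arrays with Doxy (FVBN + Doxy). The transgenic hearts gave 8 arrays without (tTA) and 5 with Doxy (tTA + Doxy). The tTA hearts express the tetracycline transactivator. A keyword on 3 arrays, none of them in a tTA group, names the alpha MHC promoter, that of Myh6, which is active in heart muscle cells. Doxy is doxycycline, a tetracycline antibiotic that stops tTA from binding its operator, and wild-type hearts received it too. Age, sex, the dose and duration of Doxy and the number of transgenic lines are not stated in the labels. Nor do the labels state that arrays come from separate animals, so a p-value speaks only of how these arrays vary, which may be technical variation. Clu was chosen by its measured difference between tTA and FVBN hearts, without and with Doxy, so that difference is described without a test.

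Clusterin, also called apolipoprotein J, is a secreted glycoprotein that binds unfolded proteins outside the cell and keeps them soluble. It travels on high-density lipoprotein, is taken up through receptors of the low-density lipoprotein receptor family, and blocks the assembly of the terminal complement complex. Its gene responds to cell stress, and clusterin is known to rise in injured and overloaded heart muscle.

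Clu was brighter on every tTA array than on any FVBN array, with and without Doxy, at both probe sets. At 95286_at the FVBN control arrays read a deposited intensity of 385 (array 8177) and 328 (8182). The FVBN + Doxy arrays read 349 (8337), 427 (8338), 344 (8340) and 375 (8341). Wild-type arrays of the 2 kinds overlapped, and 8338 was the brightest of them. In tTA hearts the intensity ran from 626 (array 9310) through a median of 755 to 890 (7311). With Doxy the tTA arrays read 761 (7399), 762 (7424), 848 (7485), 806 (7486) and 849 (7488), all inside the range of the tTA arrays without the drug. The mean intensity of FVBN control was 356 ± 40.2 (SD, n = 2) and that of FVBN + Doxy 374 ± 38.1 (n = 4). For tTA it was 760 ± 77.4 (n = 8), and for tTA + Doxy 805 ± 43.5 (n = 5).

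**Figure D1:**
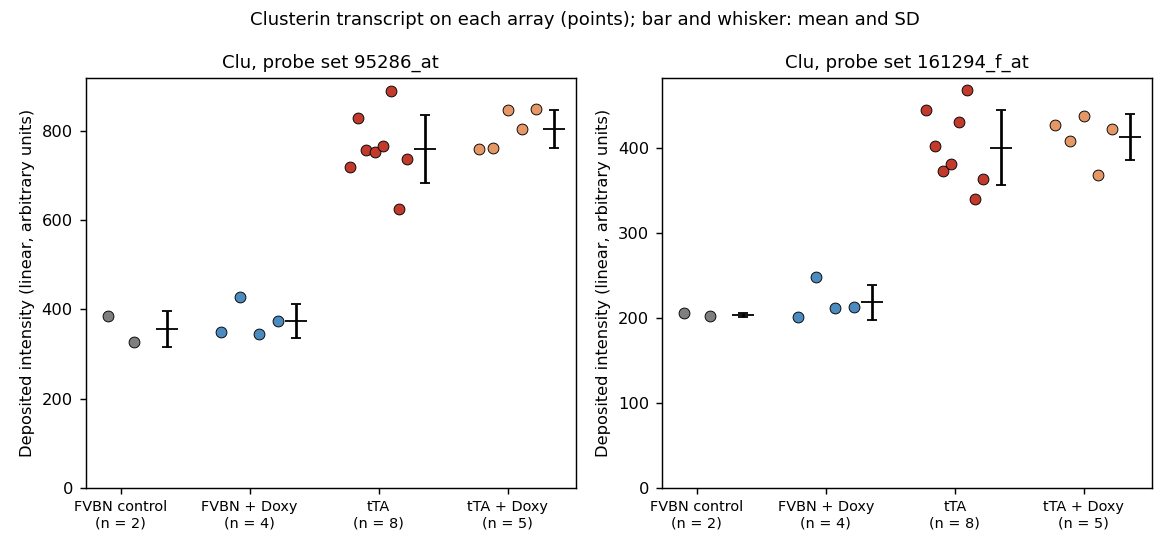
Deposited intensity of Clu (linear scale, arbitrary units) at 95286_at on the left and 161294_f_at on the right, with 1 point for each array and the group mean with its SD beside the points. The 13 tTA arrays lie between 626 and 890 on the left, above the 6 FVBN arrays, which lie between 328 and 427.

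The other probe set, 161294_f_at, gave the same separation at its own scale. FVBN control read 205 (8177) and 202 (8182), and FVBN + Doxy read 201 (8337), 248 (8338), 211 (8340) and 212 (8341). The tTA arrays ran from 339 (9310) through a median of 391.8 to 468 (7311), and tTA + Doxy from 369 (7486) through 423 to 438 (7485). Array 8338 was thus the highest wild-type array, 9310 the lowest and 7311 the highest tTA array without Doxy, at both probe sets. In the tTA + Doxy group the probe sets differed, since 7486 was the lowest array at 161294_f_at and the median array at 95286_at.

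On the log2 scale, after quantile normalization of the 19 arrays, the groups at 95286_at stood in the order FVBN control (8.44 ± 0.14), FVBN + Doxy (8.56 ± 0.12), tTA (9.59 ± 0.16) and tTA + Doxy (9.64 ± 0.08), given as mean ± SD. Neighbours in this order overlapped except in the middle. The lowest tTA array stood at 9.32 and the highest FVBN array at 8.72, a gap of 0.61, which is 1.52-fold. A gap was also present at 161294_f_at, where 8.45 faced 7.96. Such complete separation of the 13 tTA from the 6 FVBN arrays was seen for 58 of 7453 probe sets in the higher direction (0.778%) and 42 in the lower direction (0.564%). Ranked by the width of the gap among probe sets higher in tTA, those of Clu were number 2 and number 3. Only a probe set of Tpm2, the beta-tropomyosin gene, had a wider gap (0.76). Without Doxy the gaps of Clu were 0.78 and 0.77, where 6.63% of probe sets were higher and 6.09% lower with no overlap. With Doxy they were 0.83 and 0.51, where the shares were 6.23% and 3.49%.

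Among other genes the next gaps were far narrower. Gnb3, a G protein beta subunit, had a gap of 0.27. Lgals1, the gene of galectin-1, had one of 0.25 and Wfs1, which encodes the endoplasmic reticulum protein wolframin, one of 0.16. For Faap20, of the Fanconi anaemia core complex, the gap was 0.14, and its difference without Doxy did not pass the test (log2 0.40 ± 0.11 SE, limma adjusted p = 0.0592). In the lower direction the widest were those of both probe sets of the carboxylesterase gene Ces1d (0.35 and 0.34). Ryr2, the calcium release channel, had a gap of 0.24, the gap junction gene Gja1 one of 0.18 and Ung, a uracil-DNA glycosylase gene, one of 0.17. None of these reached the gaps of Clu. Tpm2, Faap20, Gja1 and Ung each have 1 further probe set on the array, whose gap is not given here. The titles number the arrays, 8177 to 8341 for FVBN and 7288 to 7488, 9310 and 9322 for tTA, without saying what the numbers stand for. No batch is labelled, and a part of batches in these gaps was not tested.

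**Figure D2:**
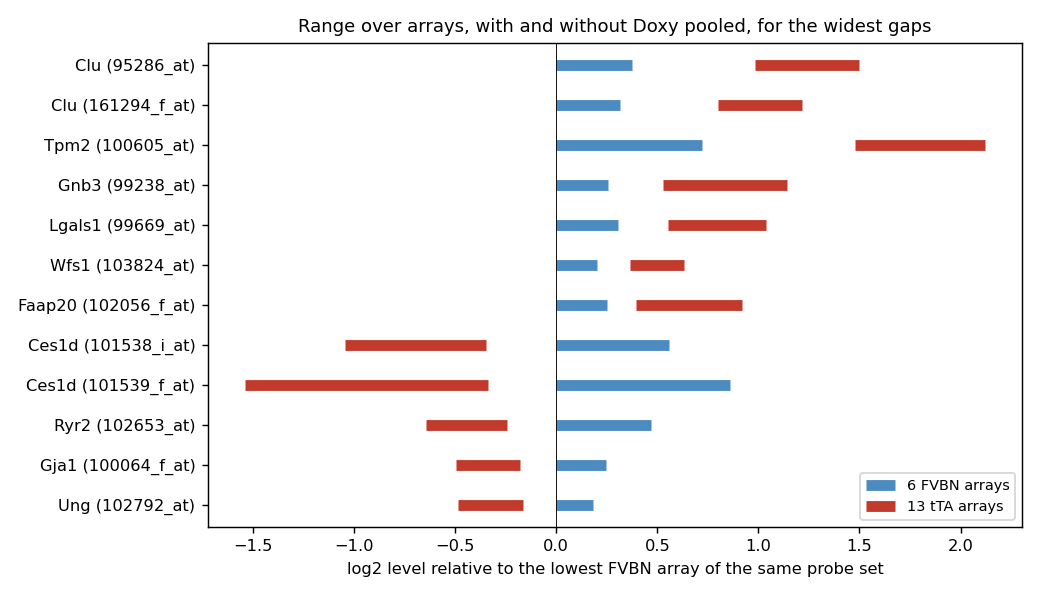
Range of the log2 level over the 6 FVBN arrays (blue) and the 13 tTA arrays (red) for both Clu probe sets and the other probe sets with the widest gaps, each set to 0 at its lowest FVBN array. The ranges of 95286_at are 0.61 apart, against 0.27 for Gnb3 and 0.76 for Tpm2.

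Fitted over all 19 arrays, Clu was 2.21-fold higher in tTA than in FVBN control at 95286_at, with a 95% confidence interval of 1.93 to 2.53. At 161294_f_at the fold was 1.98 (1.73 to 2.27). With Doxy in both genotypes the folds were 2.11 (1.88 to 2.37) and 1.85 (1.65 to 2.07). The intervals take no account of the choice of Clu by these same differences, so they describe the fit and are not a test. In these comparisons 2.79% and 5.86% of probe sets were called in either direction at a limma adjusted p below 0.05, values from which nothing is read about Clu, because they served to choose it. By the size of its rise 95286_at ranked 5 of 7453 without Doxy and 2 with it. The fold at 161294_f_at was the lower one in both comparisons. On each array the log2 value of 95286_at minus that of 161294_f_at averaged 0.78 ± 0.12 (SD, n = 2) for FVBN control and 0.78 ± 0.06 (n = 4) for FVBN + Doxy. For tTA the average was 0.94 ± 0.12 (n = 8), and for tTA + Doxy 0.97 ± 0.11 (n = 5). Arrays of tTA ran from 0.73 to 1.04 and those of FVBN control from 0.69 to 0.87, so the genotypes overlapped in this difference. The transcript stretches that each probe set covers were not examined here.

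Doxy made no difference to Clu that passed the test in either genotype. These comparisons did not enter the choice of the gene. In wild-type hearts FVBN + Doxy stood 0.12 ± 0.10 (SE) above FVBN control at 95286_at on the log2 scale (95% confidence interval -0.09 to 0.34, limma adjusted p = 0.636), and 0.13 ± 0.10 above it at 161294_f_at (adjusted p = 0.622). In transgenic hearts tTA + Doxy stood 0.05 ± 0.07 above tTA (-0.09 to 0.19, adjusted p = 0.906) and 0.02 ± 0.07 above it at the other probe set (adjusted p = 0.962). The interval in transgenic hearts runs from a 0.94-fold to a 1.14-fold level. The interaction, the Doxy difference of transgenic hearts less that of wild-type hearts, was -0.07 ± 0.12 (-0.33 to 0.19, adjusted p = 0.802). Its sign turned under the alternative scalings (0.04 and 0.02) and without FVBN control array 8182 (0.03). Few probe sets were called for Doxy at all, 0.0403% in FVBN, 0.0671% in tTA and 0.0134% for the interaction. These are 3, 5 and 1 probe sets, and leaving out 1 array moved them to between 1 (without 8177 or 8338) and 7 (without 9322), 3 (without 7399) and 23 (without 7294), and 0 (without 8177) and 4 (without 7311; 2 or 3 without 7424, 8340 or 9322).

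**Figure D3:**
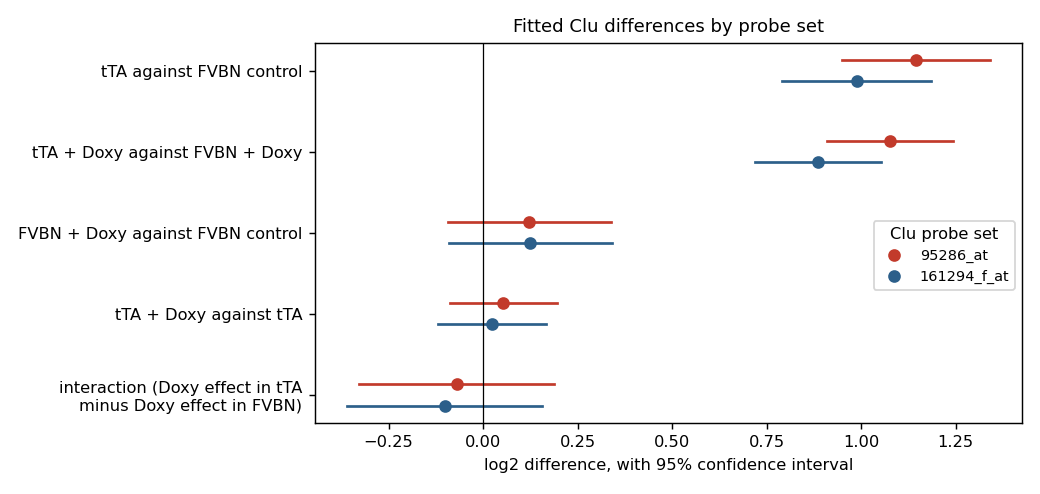
Fitted log2 differences of Clu with 95% confidence intervals for each comparison, 95286_at in red and 161294_f_at in blue. The genotype differences, by which Clu was chosen, lie between 0.89 and 1.15, and their intervals are a description only. Every interval for Doxy and for the interaction includes 0.

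Clu varied more than most transcripts in each group at 1 or both probe sets. Its SD over the 8 tTA arrays was 0.16 on the log2 scale at 95286_at, larger than that of 91.9% of tested probe sets, and at 161294_f_at it was larger than that of 91.3%. In tTA + Doxy the SD was larger than that of 52.8% at 95286_at and of 80.9% at 161294_f_at, and in FVBN + Doxy larger than that of 79.8% and 81.2%. The pair of FVBN control arrays gave 87.2% and 16.7%. The coefficient of variation of the deposited intensity at 95286_at was 11.3% in FVBN control, 10.2% in FVBN + Doxy and in tTA, and 5.41% in tTA + Doxy, and differences in spread were not tested. Arrays 9310 and 9322, whose numbers lie far from the other 6 of the group, stood at 9.32 and 9.54 against 9.50 to 9.84. Array 9310 was the lowest of the group and 9322 fell among the rest. Without this pair the fitted difference from FVBN control was 1.20 and that of tTA + Doxy from tTA was 0.00085 (limma adjusted p = 0.999).

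The probe sets followed each other only loosely within a group. Over the 8 tTA arrays Pearson r was 0.72 (exact permutation p = 0.0398) and Spearman rho 0.55 (exact permutation p = 0.171). Adjusted over the 5 relations computed for Clu, the first became an adjusted p of 0.0995. Without arrays 7311 and 9310, the ones farthest from the median, r was 0.27. Without 7311 alone it was 0.57 and without 9310 alone 0.58. Leaving out the arrays at the ends narrows the range, which by itself lowers r, so these values cannot show what the relation rests on. Over the 13 tTA arrays of both kinds, centred on group means, r was 0.66 (permutation p = 0.026, adjusted p = 0.0995) and 0.32 without the farthest arrays. In the 6 FVBN arrays, centred likewise, r was 0.78 (exact permutation p = 0.0625, adjusted p = 0.104). Without the farthest arrays it was 0.07, over very few arrays.

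Beta-actin is measured at both ends of its transcript by control probe sets, and the log2 ratio of the 3' over the 5' end is often used as a sign of RNA integrity. It was lower in tTA (0.32 ± 0.11, SD, n = 8) and tTA + Doxy (0.36 ± 0.06, n = 5) than for FVBN control (0.55 ± 0.01, n = 2) or FVBN + Doxy (0.51 ± 0.08, n = 4). At 95286_at the brightest arrays of the tTA group, 7311 and 7292, had its lowest ratios, 0.23 and 0.15. At 161294_f_at 7311 was again the brightest, but 7288 and 7310 came next, with ratios of 0.41 and 0.44. Over the 8 tTA arrays the correlation of the ratio with 95286_at did not pass (r = -0.56, exact permutation p = 0.144, rho = -0.52, exact permutation p = 0.197, r = -0.52 without the arrays of farthest ratio), nor did that with 161294_f_at (r = -0.21, exact permutation p = 0.614). The ratio ran from 0.41 to 0.60 on FVBN arrays and from 0.15 to 0.44 on tTA arrays of both kinds. With the ratio in the model the fitted difference of Clu was 1.03 ± 0.12 (SE) on the log2 scale without Doxy and 0.998 ± 0.09 with it, and the part of RNA integrity in the level of Clu was not tested.

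With 8 tTA arrays a single transcript that follows Clu cannot be called. The smallest exact permutation p is 2.48e-05, so 1 probe set alone could reach an adjusted p of 0.185 at best among 7451, and at least 4 at that smallest p would be needed. Of 7451 other probe sets compared with 95286_at over the 8 tTA arrays, 0 passed after adjustment by exact permutation (0.0%; smallest adjusted p = 0.37), by Pearson or by Spearman correlation. An unadjusted exact permutation p below 0.05 was reached by 235 of them, 3.15%, with 112 positive and 123 negative. Those named next were the closest by size of r among probe sets that vary at least as much as the median probe set. They are descriptions of these 8 arrays.

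Ptgds, the gene of a prostaglandin D synthase, ran closest to Clu. At the closest of its probe sets its log2 levels were 8.07 on array 9310, 8.16 on 7288, 8.30 on 7294, 8.55 on 7310, 8.59 on 7308, 8.67 on 9322, 8.99 on 7292 and 9.21 on 7311. The lowest and the highest of these arrays were also the lowest and highest for Clu. Pearson r was 0.94 and Spearman rho 0.93 (exact permutation p = 0.000422 and 0.00223, adjusted p = 0.999 for r), with r = 0.88 without arrays 7311 and 9310. The other Ptgds probe sets on the array that were tested gave r of 0.90 and 0.90. Across genotypes Ptgds did not run with Clu. At the same probe set it averaged 9.40 ± 0.58 (SD, n = 4) in FVBN + Doxy and 8.47 ± 0.21 (n = 5) in tTA + Doxy, a fall of -0.93 ± 0.26 (SE, limma adjusted p = 0.0426). Without Doxy the difference was -0.29 ± 0.30 (limma adjusted p = 0.687).

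The other transcripts that ran with Clu were Cebpzos (r = 0.94), Ctsl, the gene of the lysosomal protease cathepsin L (0.93), Psma6, a proteasome subunit gene (0.92), and Mien1 (0.91). Ctsl spanned 8.31 to 8.77 over the tTA arrays and Psma6 9.01 to 9.35, both lowest on 9310 and highest on 7311. Without these arrays r was 0.95 for Cebpzos, 0.76 for Ctsl, 0.70 for Psma6 and 0.58 for Mien1. Ctsl was also higher in tTA + Doxy than in FVBN + Doxy (0.25 ± 0.07 SE, limma adjusted p = 0.0288), as was Mien1 (0.31 ± 0.06, limma adjusted p = 0.00479). Without Doxy neither passed (0.19 ± 0.08, limma adjusted p = 0.226, and 0.12 ± 0.07, 0.443).

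Running against Clu were Nop53, a ribosome biogenesis factor gene (r = -0.94), Lclat1, a lysocardiolipin acyltransferase gene (-0.91), Itpkb, an inositol trisphosphate kinase gene (-0.90), the casein kinase gene Csnk1g2 (-0.87) and the homeobox gene Rhox5 (-0.87). Nop53 had the smallest permutation p of all (exact permutation p = 4.96e-05, adjusted p = 0.37), and rho was -0.98. Its levels spanned only 7.16 to 7.40. Rhox5 stood apart on 1 array, 9310 at 6.09. Its r was -0.45 without 9310 and 7311, and ran from -0.93 to -0.80 with 1 array left out at a time. Lclat1 was the sole gene of this set that also differed between genotypes without Doxy, at -0.92 ± 0.12 (SE, limma adjusted p = 0.00023). With Doxy it was lower too, at -0.73 ± 0.11 (limma adjusted p = 0.00053).

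The 11 arrays outside the tTA group, which had no part in choosing these genes, were then used with each group centred on its mean. There 6 of the 10 kept the sign of their correlation with Clu, and 0 passed (smallest exact permutation p = 0.185, adjusted p = 0.902, over 10 relations). Ptgds stood at r = 0.53 and Psma6 at r = 0.44, and Ctsl turned to -0.17.

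**Figure D4:**
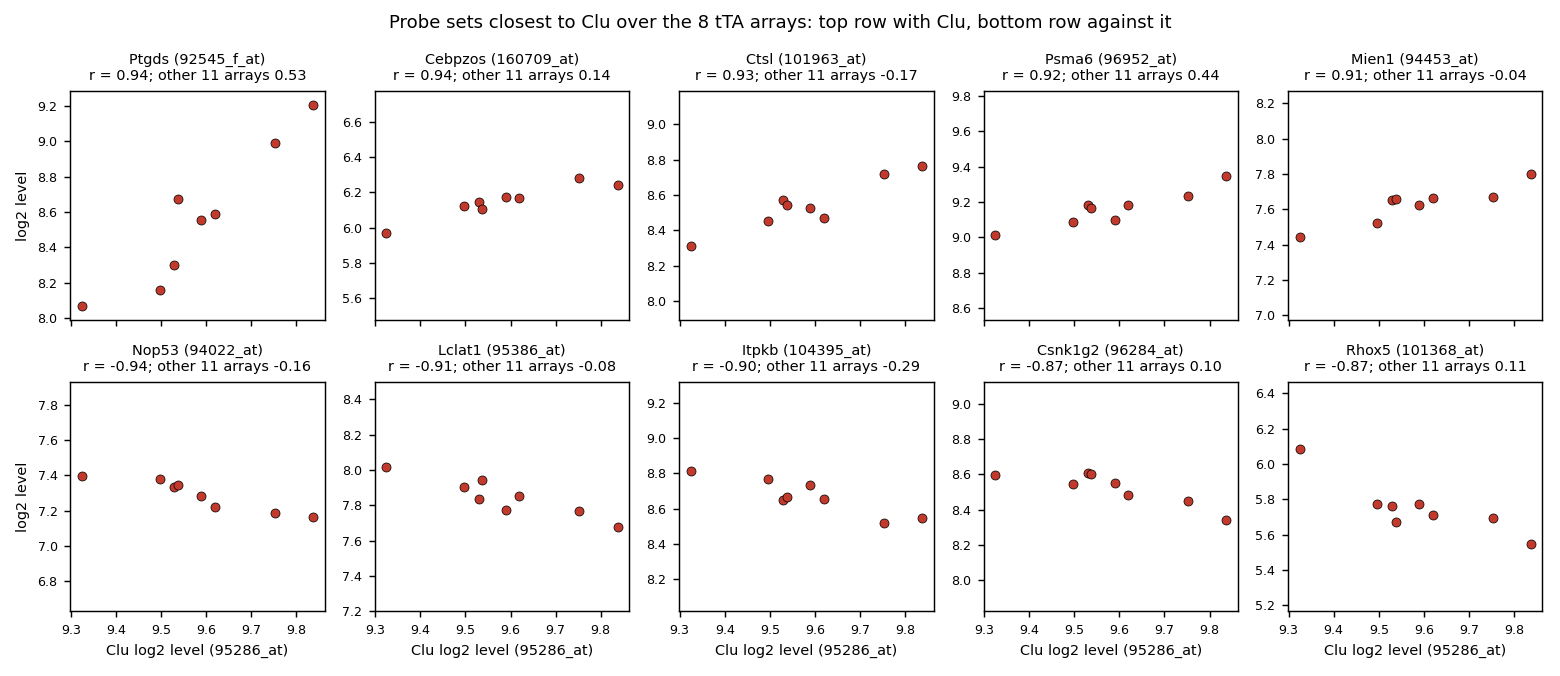
Log2 levels of the 5 probe sets that ran closest with Clu (top row) and the 5 that ran most against it (bottom row) plotted against the log2 level of Clu at 95286_at, 1 point for each of the 8 tTA arrays. Panels share their width of scale except in position, so the steep Ptgds panel (8.07 to 9.21) can be set against the shallow Nop53 panel (7.16 to 7.40).

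Genes called around clusterin were about as frequent as among all genes. The 10 lists, of its receptors, partners, regulators and the stress and injury programmes it is known from, held 170 genes, of which 95 were tested through their brightest probe set. Without Doxy 1 was higher and 2 were lower in tTA (1.05% and 2.11%), against 1.01% and 1.94% of all 5658 tested genes. With Doxy 3 were higher and 3 lower (3.16% each), against 4.54% and 1.66%. Here and below, rose and fell compare tTA with FVBN arrays, and with Doxy means tTA + Doxy against FVBN + Doxy. A count of 0 in a single list, here or among the cell types, is not read as a result, since each holds few tested genes. The medians of the 95 genes were -0.0151 and -0.03 on the log2 scale, and those of all tested genes 0.0147 and -0.0134. An unadjusted p below 0.05 was reached by 17.3% of all tested genes without and 21.8% with Doxy, the background for such counts in each list. When the beta-actin ratio entered the fit, 0 higher and 1 lower genes were called without Doxy over all 169 tested genes of these and the cell type lists, against 2 and 5 in the fit without it, and calls over all probe sets went from 208 to 27. The ratio itself ran from 0.41 to 0.60 on FVBN and from 0.15 to 0.44 on tTA arrays. Ratio and genotype are therefore hard to tell apart in that fit.

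Receptors and uptake proteins were thinly measured. Of 10 listed, 3 were tested. Lrp1, a large endocytic receptor, was at 0.03 ± 0.06 (SE, limma adjusted p = 0.829) in tTA without Doxy and -0.07 ± 0.05 (adjusted p = 0.472) with it. Dab2, an adaptor that brings receptors of this family into the cell, was lower in tTA + Doxy than in FVBN + Doxy (-0.30 ± 0.06, limma adjusted p = 0.00449). Without Doxy its difference between genotypes was -0.17 ± 0.07 (limma adjusted p = 0.244). Lrp2, the receptor known best for clusterin uptake, and Vldlr were too dim to be tested.

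For complement, too few genes were measured to read a count of 0 against the shares called over all genes. Of 11 tested complement genes 0 passed in limma in either genotype comparison, with 0 and 1 at an unadjusted p below 0.05 and medians of -0.00403 and -0.0596. Cd59a, which like clusterin restrains the terminal complex, was at -0.04 ± 0.09 (adjusted p = 0.856) and 0.08 ± 0.08 (0.606). Vtn, the gene of vitronectin, another inhibitor of that complex, was at -0.00403 ± 0.06 (0.979) and 0.10 ± 0.05 (0.262).

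Apolipoproteins and extracellular chaperones were similar, again with too few genes tested to read a count of 0 against the shares over all genes. Of 10 tested apolipoprotein and high-density lipoprotein genes 0 passed in either comparison (3 and 0 at an unadjusted p below 0.05 in limma; medians -0.0123 and 0.00991). Apoe, the main apolipoprotein of tissue cells, was at -0.17 ± 0.12 (adjusted p = 0.504) and -0.04 ± 0.10 (0.843). Pltp, the phospholipid transfer protein gene, stood at -0.35 ± 0.14 without Doxy (0.2). Its means were 7.72 in FVBN control and 7.37 in tTA, but 7.26 in FVBN + Doxy and 7.36 in tTA + Doxy, so the direction turned with Doxy. Of 6 tested extracellular chaperone and amyloid-binding genes 0 passed either, with 0 at an unadjusted p below 0.05 in both.

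Transcription factors known to act on the Clu promoter gave 0 calls among 11 tested in both comparisons in limma, with 0 and 3 at an unadjusted p below 0.05 and medians of -0.00225 and -0.105. Over all genes 1.01% were called higher and 1.94% lower without Doxy, and 4.54% and 1.66% with it. At such shares a count of 0 among 11 cannot be read as a result. Egr1, an early growth response factor, was at 0.06 ± 0.09 (adjusted p = 0.811) and -0.25 ± 0.08 (0.0616). Jun, part of the AP-1 factor, was at -0.09 ± 0.07 (0.533) and 0.09 ± 0.06 (0.407). Hsf1, the heat shock factor, has no entry of its own in the probe annotation used here, and neither have Bax and C3.

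Cytosolic heat shock genes had medians of 0.111 without and 0.177 with Doxy, and none of the 11 tested passed (0 in limma, with 4 and 5 at an unadjusted p below 0.05). Here too the list is too short to read a count of 0 against the shares over all genes. Under the other scalings the medians were 0.0611 and 0.0759 without Doxy and 0.201 and 0.194 with it. Hsph1, a co-chaperone gene of the HSP110 family, was at 0.39 ± 0.16 (adjusted p = 0.221) and 0.44 ± 0.14 (0.0665), and Hsp90aa1 at 0.36 ± 0.17 (0.282) and 0.40 ± 0.14 (0.11). Both were picked as risers. Without Doxy the means of Bag3 (9.12 in FVBN control, 8.90 in tTA), Hspb8 (10.35, 10.25), Hspa4 (8.50, 8.43) and Dnajb1 (5.72, 5.67) were lower in tTA. Those of the other tested members were higher. Cryab, the small heat shock protein gene most abundant in heart, was at 0.14 ± 0.09 (0.456) and 0.02 ± 0.08 (0.927). Hspb1 was too dim to be tested.

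In the endoplasmic reticulum, where clusterin is made, calls went both ways. Of 14 tested genes, Herpud1, a stress-induced membrane protein gene, fell without Doxy (-0.29 ± 0.07 SE, limma adjusted p = 0.0265). Its means were 8.48 in FVBN control and 8.14 in FVBN + Doxy, 8.19 in tTA and 8.22 in tTA + Doxy, so FVBN control alone stood high. The stress factor genes Atf6 (0.30 ± 0.07, adjusted p = 0.012) and Ddit3 (0.24 ± 0.06, 0.0194) were higher in tTA + Doxy than in FVBN + Doxy. Ddit3 averaged 6.71 in FVBN + Doxy, below its 6.90 in FVBN control and 6.95 in tTA + Doxy. The list medians were -0.0732 and -0.0459.

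Clusterin is known to restrain apoptosis, and among 11 tested apoptosis regulators only Mcl1, a survival factor of the BCL2 family, passed. It fell without Doxy (-0.29 ± 0.08 SE, limma adjusted p = 0.0463), a call that 15 of 30 alternatives ended, and stood at -0.04 with Doxy. In TGF-beta signalling 1 of 8 tested genes passed, Tgfb1, which was lower in tTA + Doxy than in FVBN + Doxy (-0.18 ± 0.05, adjusted p = 0.0339). Without Doxy its difference between genotypes was -0.17 ± 0.06 (0.126). The medians of that list were -0.102 and 0.0318.

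Of 11 tested genes of cardiac injury and remodelling, Acta1, the skeletal alpha-actin gene, rose without Doxy (1.68 ± 0.26 SE, limma adjusted p = 0.002) and with it (0.80 ± 0.22, 0.0461, a call that 18 of 30 alternatives ended). In tTA + Doxy the level of Nppb, which encodes brain natriuretic peptide, lay below that in FVBN + Doxy (-0.90 ± 0.23, limma adjusted p = 0.0288). The genotype difference of Nppb without Doxy was -0.32 ± 0.27 (0.596). Nppb averaged 10.62 in FVBN control, 11.23 in FVBN + Doxy, 10.31 in tTA and 10.33 in tTA + Doxy, so FVBN + Doxy stood highest. Nppa, which codes for atrial natriuretic peptide, stood at -0.10 ± 0.16 (0.806) and -0.30 ± 0.13 (0.2). The list medians were -0.0994 and -0.0361.

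**Figure D5:**
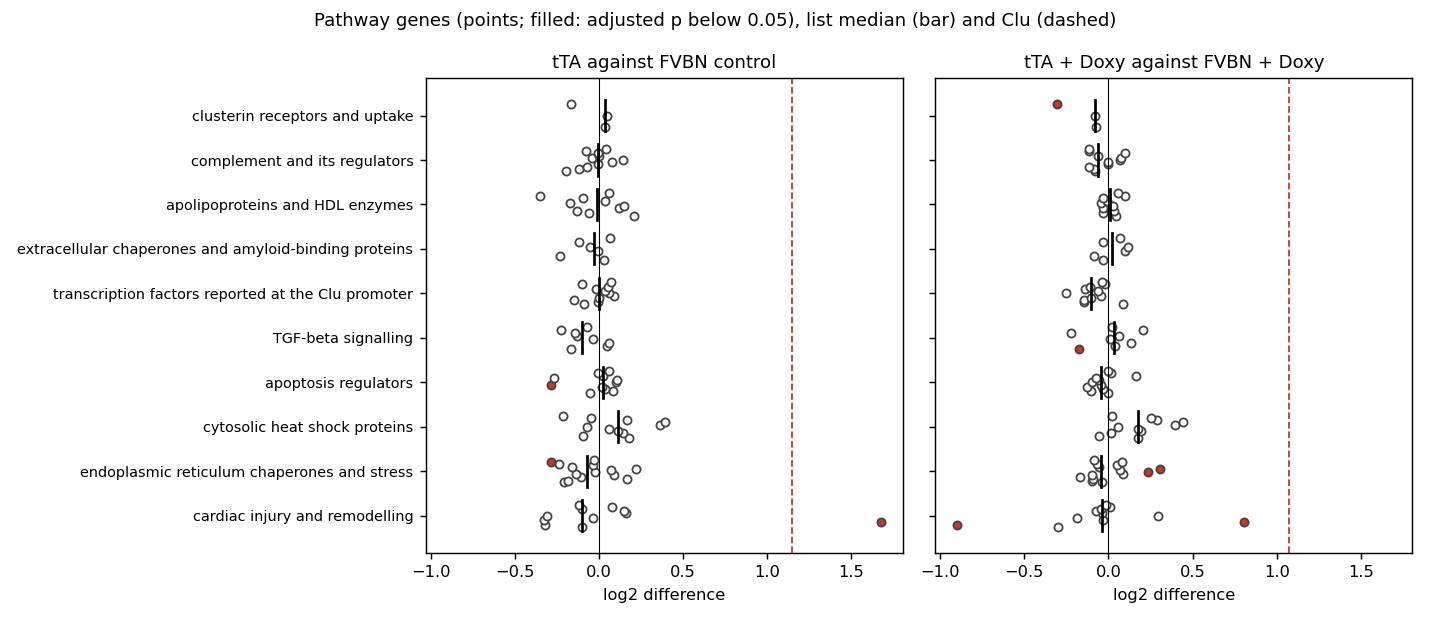
Log2 differences of the tested genes of 10 lists around clusterin in tTA against FVBN control (left) and with Doxy in both genotypes (right), filled where the limma adjusted p is below 0.05, with the list median as a bar. The dashed line marks Clu at 1.15 and 1.08, and among the genes drawn only Acta1 on the left lies beyond it.

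These are samples of whole tissue, in which more cells of a type and more RNA per cell cannot be told apart, and the cells that carry the Clu transcript were not identified. Ventricular myocyte markers were the bright ones, with a summed intensity of 31180.3 to 36291 over 10 genes on all arrays. Atrial markers summed to 879 to 996 on FVBN arrays, 871 to 1098 in tTA and 867 to 923 in tTA + Doxy over 10 genes, and these ranges overlapped. Of 6 tested atrial genes Stard10, a lipid transfer protein gene, rose without Doxy (0.31 ± 0.07 SE, limma adjusted p = 0.0224). Mesothelial markers (411 to 474 in FVBN, 406 to 447 in tTA of both kinds, 7 genes), Schwann cell markers (320.4 to 357 and 319 to 343, 5 genes) and platelet markers (204 to 237 and 201 to 236, 3 genes) overlapped as well. Adipocyte, lymphocyte and skeletal muscle markers gave 0 calls in limma among 4, 4 and 5 tested genes in both comparisons, with at most 1 of each at an unadjusted p below 0.05. Such short lists do not allow a count of 0 to be read.

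Over all 13 marker lists 1 of 76 tested genes was higher and 3 were lower without Doxy (1.32% and 3.95%), and 2 and 4 with it (2.63% and 5.26%), against the shares of all genes given above. Smooth muscle and pericyte markers summed to 1288 to 1460.4 in FVBN, 1110.2 to 1254 in tTA and 1204 to 1356 in tTA + Doxy over 9 genes. Without Acta2, left out after its values were seen, the other 8 summed to 967 to 1025 in FVBN, 962 to 1061 in tTA and 984 to 1036 in tTA + Doxy, and these ranges overlapped. The list medians were -0.0506 and -0.0175, with 1 of 8 tested genes lower in each comparison and 1 higher with Doxy. Acta2, the smooth muscle alpha-actin gene, fell (-1.27 ± 0.20 SE, limma adjusted p = 0.00151, and -0.66 ± 0.17, 0.0278, with Doxy), while Smtn, another smooth muscle gene, rose with Doxy (0.26 ± 0.06, 0.0193). Red cell markers summed to 4731 to 5763 in FVBN, 2669 to 4750.0 in tTA and 2582 to 5498 in tTA + Doxy over 4 genes, of which 0 passed in limma in either comparison (1 and 1 at an unadjusted p below 0.05). In 3 other lists a single gene passed. Emcn fell without Doxy, as 1 of 10 tested endothelial genes (-0.28 ± 0.07, 0.0265). Endothelial markers summed to 2525 to 2575 on the 2 FVBN control arrays and 2249 to 2443 in tTA over 10 genes, without overlap. In that comparison 6.09% of single probe sets were lower in tTA without overlap, and the smooth muscle sums with Acta2 did not overlap either. In FVBN + Doxy they summed to 2206 to 2608 and in tTA + Doxy to 2138 to 2335, which overlapped. The medians of that list were -0.114 and -0.0837. In each comparison 3 of 10 had an unadjusted limma p below 0.05, against 17.3% and 21.8% of all tested genes. Fbln1, as 1 of 12 tested fibroblast genes (-0.25 ± 0.07, 0.0267), and Cd14, as 1 of 7 tested macrophage genes (-0.19 ± 0.05, 0.034), were lower in tTA + Doxy than in FVBN + Doxy. The macrophage list had medians of -0.164 without and -0.0786 with Doxy, with 2 and 3 of 7 at an unadjusted limma p below 0.05. Its markers summed to 992 to 1063 in FVBN control and 891 to 1028 in tTA over 10 genes, which overlapped. Of the ventricular myocyte list Ryr2 was lower in tTA in both comparisons (-0.82 ± 0.10, 5.94e-05, and -0.58 ± 0.09, 0.000527). Mybpc3, the cardiac myosin binding protein gene, was higher in tTA + Doxy than in FVBN + Doxy (0.31 ± 0.05, 0.00104). Among all markers on the array only Myh1, of skeletal muscle, lay at the intensity floor on every array. The part of these differences in the level of Clu was not tested.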

How the data were processed

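The deposited table holds intensity values on a linear scale for 12488 probe sets on 20 arrays; how the authors summarised, background-corrected and normalized them is not given in the sources used here. Array medians lay between 60.7 and 62.5. The deposited files give no counts, and the number of arrays limits the precision. Of 12422 probe sets left after 66 controls, GEO's platform annotation linked 10833 to 1 gene, 396 to several and 1193 to none, with 10817 symbols updated by gene number from a GRCm38.p6 gene table.

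Intensities of the 19 grouped arrays were quantile normalized (R 4.3.3, limma 3.58.1), raised to a floor of 14.4 (their 10th percentile) and converted to log2. The 60% of highest mean level were tested in a linear model of 4 group means, with trended and robust moderation and Benjamini-Hochberg adjustment within each of 5 comparisons; calls need an adjusted p below 0.05. Folds are 2 to the power of the log2 difference. Gene lists use each gene's brightest probe set. Correlations with Clu used every pairing of the 8 tTA arrays (40320), or 5760 pairings within groups for the 11 others, or 100000 resamples within groups for 13 arrays, all two-sided, in Python 3.11.15 with numpy 2.4.6. Named genes were all Clu probe sets, the 5 closest and 5 most opposed probe sets by r in tTA (1 gene, SD at least the median, sign kept without the 2 farthest arrays), the 5 widest gaps in each direction, up to 4 called members of a list, and 11 set genes. Lrp1, Vtn, Pltp, Egr1, Jun, Hsph1 and Hsp90aa1 fall outside that rule and were chosen as examples after their values were seen. Fit and correlations were tested on simulated data. Members and lists were chosen with earlier results of these data known. The title of 1 array gives no group, and it entered no comparison.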

Additional observations from a re-analysis of the deposited data

Results flagged for a closer look

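Within groups of 4 to 8 arrays, a sample lay far from the rest of its group for 5 of 123 combinations of a probe set and a group, where chance gives about 1 in 20. For Clu this was tTA + Doxy array 7486 at 161294_f_at, at 8.48 on the log2 scale against 8.68 to 8.75 on the other 4, while 95286_at put the same array at 9.61, within its group. Herpud1 stood apart on tTA array 9322 (8.47), Nppa on tTA array 9310 (8.70), Ctsl on tTA + Doxy array 7424 (8.42) and Rhox5 on tTA array 9310 (6.09).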

How the results depend on the processing

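In 30 alternative fits, which changed the scaling, floor, filter, weights, moderation, arrays or covariate, Clu at 95286_at stayed higher in tTA. With each array left out in turn its log2 difference ran from 1.04 to 1.24 without Doxy and from 1.04 to 1.13 with it; at the other Clu probe set it was 0.99 and 0.89. No Doxy difference of Clu passed in any of them. The interaction, -0.17 to 0.0296 with arrays left out, turned to 0.0413 with arrays scaled to the same median and 0.0198 with no further normalization. With arrays left out the correlation of the 2 Clu probe sets over tTA arrays ran from 0.57 to 0.86. With all 8 arrays its unadjusted exact permutation p was 0.0398, while its adjusted p of 0.0995 did not pass. The unadjusted p rose above 0.05 without 7311 or 9310 (r = 0.57 and 0.58). It also did without 7294, 7308 or 9322, where r was 0.72 to 0.74 on 1 array fewer (exact permutation p from 0.0546 to 0.192 over the 5). The cause of these changes was not tested, nor that of those that follow.

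Probe sets called without Doxy numbered 208, and 27 once the actin ratio was a covariate, 54 without FVBN control array 8177 and 63 without 8182; with arrays left out they ran from 54 to 240. With Doxy 437 were called, 282 when every probe set was tested, 703 under array weights and 241 to 493 with arrays left out (271 without 8337 or 7485, 267 without 7488, 241 without 8341). Their higher and lower split without Doxy was 72 and 136, against 46 and 221 with arrays scaled to the same median.

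Of 169 tested list genes 2 were called higher and 5 lower without Doxy. This became 1 and 2 with all probe sets, 0 and 1 with the beta-actin ratio, 2 lower with only the arrays compared, and 1 to 2 higher and 1 to 6 lower with arrays left out (1 and 1 without 8177, 1 and 3 without 8182). With Doxy 5 were higher and 7 lower, which became 2 and 2 for all probe sets, 8 and 11 under array weights, 3 and 4 with the beta-actin ratio, and 2 to 6 and 2 to 8 with arrays left out, where leaving out 8337, 8338, 8340, 8341, 7485, 7486 or 7488 lowered at least 1 of these counts by over 1.5 times. A count of 0 probe sets following Clu after adjustment says nothing about stability, since with 7 arrays at least 30 and with 6 at least 207 would have to reach the smallest possible p. An unadjusted p below 0.05 was reached by 235, by 390 over 13 arrays and by 379 without arrays 9310 and 9322, with 152 (without 7311) to 378 (without 7292) when arrays were left out.

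Signs of differences that did not pass turned with the actin ratio for Cd59a without Doxy (0.0722) and, with Doxy, for Mcl1 (0.0503), Apoe (0.0312) and Cryab (-0.0376). Without Doxy, leaving out arrays moved Ddit3 from -0.0506 to 0.00234, Apoe from -0.388 to 0.0437 and Cd59a from -0.144 to 0.0565, each positive only without 8177. With Doxy, Apoe ran from -0.117 to 0.0105, positive without 8337 or 7424 (0.0063), and Cryab from -0.0475 (without 8341) to 0.0675, negative also without 8338, 7424 and 7485. Calls ended most often, of 30 alternatives, for Acta1 with Doxy (18), Mcl1 (15), Acta2 with Doxy and Cd14 (10 each), Tgfb1 (9), Nppb and Fbln1 (8 each) and Herpud1 (6). No paired analysis was possible because no replicate number is shared between groups.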

Other observations

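The array titled only Cardiac tTA expression, which has no group here, read a deposited Clu intensity of 397 at 95286_at and 235 at 161294_f_at. On the grouped arrays the 6 FVBN arrays read 328 to 427 and 201 to 248, and the 13 tTA arrays 626 to 890 and 339 to 468.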
